A study of Medicago sativa with 6 samples.

Results

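Roots and leaf of alfalfa (Medicago sativa) were compared gene by gene, and the genes that stood at least 4-fold apart were described. A gene was counted as higher in roots when it had 10 or more TMM CPM in the root library and at least 4 times its leaf level, and as higher in leaf by the mirrored rule. TMM CPM are reads counted per 1000000 of a library total scaled with edgeR's trimmed mean of M-values, fitted over all 6 libraries. Of 164633 annotated genes, 20933 reached 10 TMM CPM in roots or leaf. Among these, 4928 genes (23.5%) were higher in roots and 4144 (19.8%) were higher in leaf, so that 9072 genes (43.3%) met the rule on either side. The levels in roots and leaf chose these genes and are given as a description, whereas nodules, stem, flower and seedpod took no part in the choice apart from the shared scaling.

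All 6 tissues came from the genotype RegenSY27x, grown with days of 16 hours at 22 °C and nights at 18 °C. Roots were the compared organ and leaf the one they were set against, each as a single library made from the pooled RNA of 3 replicates, and the stated tissue age was 8 weeks, although the stage label carries another figure. No agent or mutation distinguished the tissues, and the labels do not say whether nodules were removed from the roots. The flower library is titled as flower bud. The root library held 8568581 counts and the leaf library 8846524, with 8735091 to 9883512 in the other 4, and 10 TMM CPM corresponded to 94.3 counts in roots and 71.8 in leaf. With 1 library per tissue no difference has a replicate check, and no p-value is given. Intervals of levels and ratios are 95% intervals that cover the error of counting alone, and because the reads carried no molecular identifiers they are not independent molecules. Intervals of shares of genes take genes as independent draws, which neighbouring genes and haplotype copies are not. In bulk tissue, fewer cells of a type and less RNA per cell cannot be told apart.

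Roots take up water, nitrate, phosphate and other ions from the soil, are lined by an endodermis that controls entry to the vascular tissue, and in legumes carry the nodules in which rhizobia fix nitrogen. Leaves carry out photosynthesis, and the transcripts of the light-harvesting proteins, of the small subunit of Rubisco and of the Calvin cycle enzymes are typically among the most abundant there. Cultivated alfalfa is an autotetraploid, so that most genes exist as several allelic copies on homologous chromosomes, which the annotation lists separately. The files pair no identifier with a gene name other than PHO2, and 0 of the 63463 genes of a table of another alfalfa assembly matched. No member can therefore be given a function, the marker lists for photosynthesis, root uptake and nodules have no value here, and the tissue labels were not checked against markers. Genes are given by position, by structure and by their levels. The sources used here do not give the genome build of the coordinates.

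The 2 sets weighed unequally on their libraries. The genes higher in roots took 35.4% of all root counts and 1.87% of the leaf counts. The genes higher in leaf took 5.24% of the root counts and 48.6% of the leaf counts. Median levels were 25.7 TMM CPM in roots and 1.39 in leaf for the root set, and 3.61 in roots and 41.4 in leaf for the leaf set. The median fold of the root set was 19.2 (middle range, first to the third quartile, 7.34 to 55.4), and 720 of its genes were 100-fold or more apart. That of the leaf set was 9.84 (5.56 to 30.3), with 414 genes at 100-fold or more. In 622 genes of the root set the leaf library had no count, and in 171 genes of the leaf set the root library had none. Ratios against a library with 0 counts were taken against 3 counts in that library, the one-sided 95% limit of a count of 0, and both medians hold such genes at that value. The lower end of the two-sided interval of such a ratio is smaller. By the lower end of the counting interval, 4097 genes of the root set and 3273 of the leaf set were still 4-fold or more apart. Relative to unscaled totals, TMM shifted the log2 ratio of roots to leaf of every gene by -0.44, and with library totals 6120 genes were higher in roots and 2909 in leaf. The root side thus made up 54.3% of the called genes with TMM and 67.8% with library totals. No gene could change sides between these scalings, because the shift was the same for every gene and far smaller than the 4-fold limit.

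**Figure D1:**
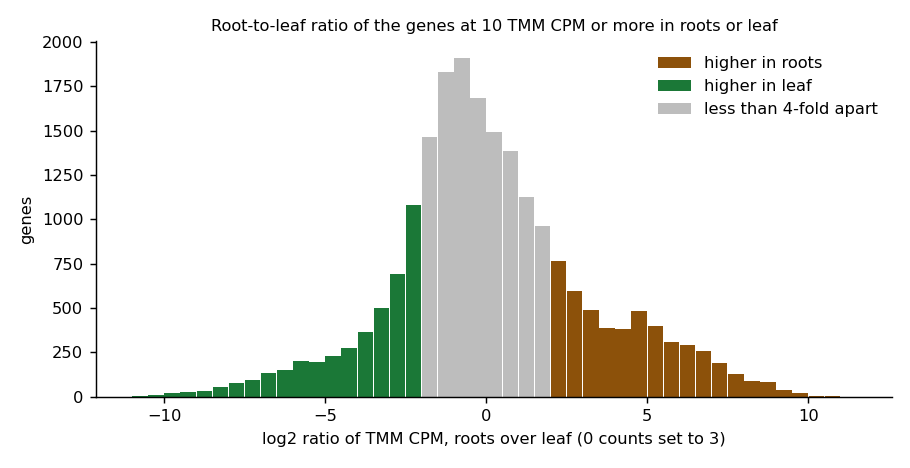
Number of genes (vertical axis) by the log2 ratio of TMM CPM in roots over leaf (horizontal axis, bins of 0.5) for the 20933 genes that reached 10 TMM CPM in either tissue, with the 4928 genes higher in roots in brown, the 4144 higher in leaf in green and the other genes in grey. The bins show no gap at the 4-fold limit, and the root side holds more genes far from it than the leaf side. On the root side the bins fall to 382 genes at 4 to 4.5, rise to 485 at 4.5 to 5 and then fall again. On the leaf side they thin out apart from a small rise, from 194 genes at -5.5 to -5 to 201 at -6 to -5.5. The root side includes 622 genes without a leaf count, placed by the substituted count given in the text. How many of them lie in each bin was not counted.

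The limit of 4-fold cut through a continuous range of ratios. Among genes at 100 TMM CPM or more, the 3 just inside on the root side had ratios of roots to leaf of 4.002, 4.01 and 4.02, and the 3 just outside had 3.996, 3.993 and 3.986. A gene on chromosome 4.4 (614015 to 616020), the nearest inside, had 167 TMM CPM in roots and 41.8 in leaf. A gene on chromosome 7.4 (23282274 to 23285469), the nearest outside, had 233 in roots and 58.2 in leaf. On the leaf side the nearest inside lay on chromosome 5.2 (55944146 to 55959026), with 51.2 in roots and 206 in leaf, a leaf excess of 4.01-fold. The nearest outside lay on chromosome 4.2 (88891492 to 88895163), with 83.8 in roots and 335 in leaf, an excess of 3.9999-fold. The counting intervals of all of these genes spanned the limit.

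The most abundant gene of the root set was MS.gene90104 on chromosome 1.4 (88487619 to 88492417, minus strand, 3 exons, 4026 nucleotides of coding length). Its level was 8195 TMM CPM (8137 to 8253) in roots, against 313 (299.9 to 326) in leaf, a ratio of 26.2 (25.1 to 27.3). Nodules stood at 1964 and stem at 1190.1, above the 313 of leaf, whereas flower at 228 and seedpod at 237 stood below it. MS.gene87999 on chromosome 4.3 (70185592 to 70186287, minus strand, 1 exon, 696 nucleotides) followed, at 4043 TMM CPM (4003 to 4084) in roots, against 65.2 (59.4 to 71.4) in leaf, a ratio of 62.0 (56.6 to 68.1). Seedpod at 2202 and nodules at 1635 came nearest to its root level, and flower at 89.7 was close to leaf. Per kilobase of coding length the order of the pair was the opposite, with 2036 TMM CPM per kilobase in roots for MS.gene90104 and 5809 for MS.gene87999. A second single-exon gene of chromosome 4, on haplotype 4.1 (70543728 to 70544438, 711 nucleotides), had a like profile, with 1809 TMM CPM in roots, 20.5 in leaf, 807 in nodules and 656 in seedpod. Its ratio of roots to leaf was 88.4 (75.1 to 105).

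The other genes among the 10 most abundant in the root set differed in what the remaining tissues did. In some, only nodules came near roots. A gene of 9 exons on chromosome 8.4 (74755577 to 74760274, 2607 nucleotides) had 3823 TMM CPM in roots, 9.47 in leaf and 1998 in nodules, against 5.57 in stem, 39.9 in flower and 30.6 in seedpod, and its ratio of roots to leaf was 404 (318 to 519.9). A gene of 4 exons on chromosome 2.3 (59964935 to 59966929, 1068 nucleotides) had 1589 in roots, 4.18 in leaf, 526 in nodules and 3.87 to 18.8 in the remaining tissues, with a ratio of 380.4 (266 to 564). In another 3 genes the other aerial tissues shared the transcript and leaf was the lowest of the 6 tissues. A gene of 2 exons on chromosome 6.3 (15174671 to 15176110) reached 1516 TMM CPM in roots, against 270.5 in leaf, and between 1125 and 1603 in the other 4 tissues, so that its ratio of 5.604 (5.34 to 5.88) set leaf apart rather than roots. A gene of 3 exons on chromosome 2.1 (19139262 to 19140749) had 1729 in roots and 16.7 in leaf, a ratio of 103 (86.5 to 125), with 668 in stem, 424 in nodules, 345 in seedpod and 319 in flower. A gene of 13 exons on chromosome 2.4 (45986692 to 45991298) had 1908 in roots and 335 in leaf, but its highest level was the 2792 of seedpod. The remaining pair, on chromosomes 5.4 (64726580 to 64730014) and 1.4 (17913056 to 17916912), had roots as the highest tissue. The gene on chromosome 5.4 had 2019 in roots, 451 in leaf and 173 to 351 elsewhere, so that leaf was its next highest tissue at a ratio of only 4.47 (4.31 to 4.64). The gene on chromosome 1.4 had 2014 in roots and 93.5 in leaf, a ratio of 21.6 (20.0 to 23.3), with 214 in nodules.

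The widest gaps on the root side were found by the lower end of the counting interval among genes at 100 TMM CPM or more, and 3 of the 5 genes so ranked had a single exon. A single-exon gene of 696 nucleotides on chromosome 4.4 (37970159 to 37970854) reached 972 TMM CPM in roots, against 1.25 in leaf, from 9160 and 9 counts, a ratio of 775 (408 to 1696). A single-exon gene on chromosome 1.4 (73113164 to 73114015) had 643 in roots and 0.696 in leaf, a ratio of 924 (396 to 2846). A gene on chromosome 4.4 (45513353 to 45515294) had 2775 counts in roots and 1 in leaf, for which the interval of the ratio ran from 379 to 83521. In each of these 3 genes nodules were the next highest tissue, at 213, 78.4 and 106 TMM CPM, and stem, flower and seedpod had 5.16 or less. A single-exon gene on chromosome 2.3 (23789559 to 23792189), at 1479 in roots and 2.51 in leaf, likewise had nodules next, at 136. The fifth gene differed. On chromosome 7.4 (3052494 to 3054197, 7 exons, 525 nucleotides), 1754 counts in roots, or 186 TMM CPM, stood against 0 in leaf and 0 in nodules, which makes roots at least 445-fold higher than leaf against the limit of 3 counts, or 362-fold by the lower end of the two-sided interval. Flower had 94.4.

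The most abundant genes of the leaf set were short. MS.gene062068 on chromosome 2.3 (45194515 to 45196161, minus strand, 5 exons, 558 nucleotides) stood at 15.7 TMM CPM (13.3 to 18.4) in roots, against 12549 (12467 to 12631) in leaf, and was 799-fold higher in leaf (680.3 to 946). Nodules had 449 and the remaining tissues 7.25 to 10.3, less than roots. MS.gene85296 on chromosome 2.4 (45328462 to 45329256, minus strand, 3 exons, 351 nucleotides) stood at 11.7 (9.59 to 14.1) in roots, against 10177 (10103 to 10251) in leaf, an 872-fold excess of leaf (723 to 1061). Nodules again came next, at 180.2, and the others had 6.24 to 8.54. Per kilobase of coding length MS.gene85296 was the higher of the pair in leaf, at 28994.5 TMM CPM per kilobase, with 22489.6 for MS.gene062068.

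Nodules took an intermediate place in several of the next genes. On chromosome 2.4 (71310137 to 71311637, 4 exons, 756 nucleotides) the levels were 147 TMM CPM in roots, 7016.5 in leaf and 1749.5 in nodules, against 49.5 to 101 in the remaining tissues, and leaf stood 47.9-fold above roots (45.4 to 50.5). On chromosome 3.2 (89346763 to 89347585, 4 exons, 435 nucleotides) they were 76.3 in roots, 5506 in leaf and 1714 in nodules, against 10.8 to 18.3 elsewhere, a leaf excess of 72.2-fold (67.0 to 77.8). On chromosome 1.2 (77552591 to 77554200) nodules had 572, with 54.8 in roots and 6243 in leaf. On chromosome 7.4 (3753611 to 3755150) nodules had 525, with 175 in roots and 5164 in leaf, the smallest excess of leaf among the 10, at 29.5-fold (28.1 to 31.0). The gene of 10 exons on chromosome 3.3 (85634143 to 85642942, 1164 nucleotides) had 12.3 in roots and 6908 in leaf, with 85.1 in nodules and 3.87 to 7.39 elsewhere. Leaf was 561-fold above roots in this gene (468 to 679). A pair of genes of 4 exons and 348 nucleotides on chromosomes 8.3 (16800748 to 16801549) and 8.1 (19037414 to 19038218) had 23.3 and 15.6 in roots and 5718 and 4775 in leaf.

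Seedpod, not nodules, was the second tissue in others. A single-exon gene on chromosome 5.1 (66593411 to 66593812, 402 nucleotides) had 6.37 TMM CPM in roots and 5068 in leaf, and was 796-fold higher in leaf (618 to 1043). Seedpod had 532, stem 132, flower 84.8 and nodules 22.5. A single-exon gene on chromosome 4.3 (64323279 to 64323872) had 2.44 in roots, 2265 in leaf and 39.7 in seedpod, with nodules at 2.08. Its 928-fold excess of leaf (618 to 1465) was among the 5 firmest by the lower end of the interval. The largest fold of the leaf set belonged to a gene of 5 exons on chromosome 2.2 (42040148 to 42041845), with 0.530 in roots and 871 in leaf, from 5 and 6252 counts, 1642-fold higher in leaf (703 to 5057). In this gene nodules were the second tissue, at 22.1, and seedpod had 0.334.

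The low side of abundant genes did not reach 0. Among the 18 genes of the root set with 10000 or more root counts, the leaf counts were between 0.129% and 17.0% of the root counts, with a median of 1.41%. Among the 57 genes of the leaf set with 10000 or more leaf counts, the root counts were between 0.141% and 30.5% of the leaf counts, with a median of 2.44%. The largest folds among these genes were accordingly 590.0 on the root side and 928 on the leaf side. 

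In the other 4 tissues the sets behaved differently. Roots were the highest of all 6 tissues in 2276 genes of the root set (46.2%, interval 44.8 to 47.6), and leaf was the highest in 3568 genes of the leaf set (86.1%, 85.0 to 87.1). Among the 11861 measured genes less than 4-fold apart, roots were highest in 10.9% and leaf in 41.9%. The other genes of the root set had their maximum in nodules (937), flower (754), seedpod (497) or stem (464). Conversely, leaf was the lowest of the 6, ties included, in 70.3% of the root set (69.0 to 71.6), and roots were the lowest in 34.1% of the leaf set (32.7 to 35.6). Over all measured genes these shares were 28.3% for leaf and 11.8% for roots, and the rule itself selected for a low level of the one or the other. With library totals the shares with roots or leaf as the highest tissue were 47.4% of the root set and 82.1% of the leaf set.

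**Figure D2:**
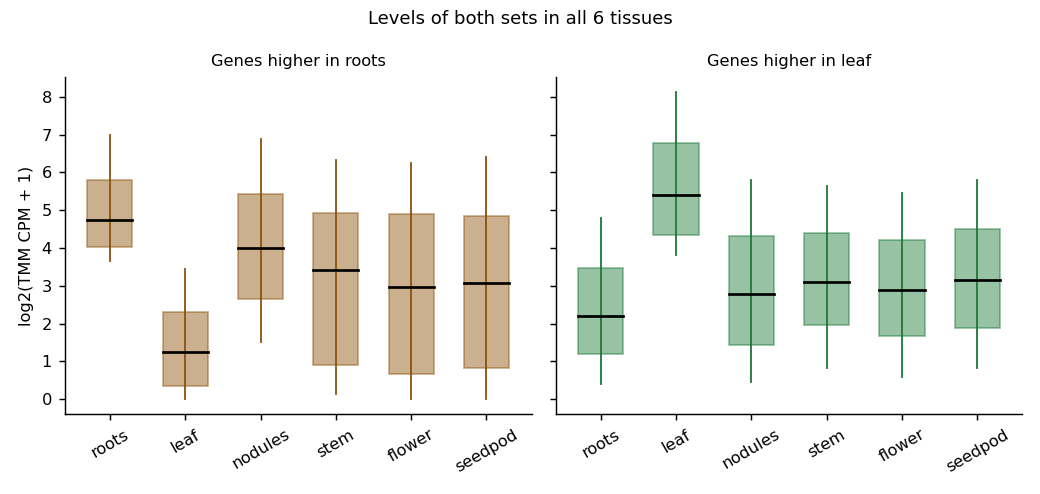
Levels, as log2(TMM CPM + 1) on the vertical axis, of the 4928 genes higher in roots (left) and the 4144 higher in leaf (right) in each of the 6 tissues; the box spans the middle 50% of genes, the line in it is the median and the thin line runs from the 10th to the 90th percentile of genes. In the left panel nodules (median 14.9 TMM CPM) lie nearest to roots (25.7) and leaf is low (1.39), while in the right panel all 5 tissues other than leaf have medians between 3.61 and 7.91.

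Each gene was then described by which of the other 4 tissues came within 4-fold of the higher of roots and leaf, or exceeded it. In the root set nodules did so for 3514 genes (71.3%), stem for 56.2%, flower for 49.9% and seedpod for 52.4%. The median nodule level was 50.8% of the root level of the same gene, with 38.1% in stem, 24.9% in flower and 28.9% in seedpod. In the leaf set the shares were lower and closer together, namely 29.0% (nodules), 33.2% (stem), 29.2% (flower) and 34.0% (seedpod), and the median levels were 14.1% to 16.5% of the leaf level. The distance between tissues depended on the scaling. With library totals nodules and stem had 66.7% and 61.8% in the root set, and 22.1% and 40.2% in the leaf set. Among genes less than 4-fold apart, each of the 4 tissues was within 4-fold in 83.8% to 91.7% of genes.

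The commonest combination in the root set was all 4 other tissues together, with 1666 genes (33.8%, 32.5 to 35.1). These genes had a median ratio of roots to leaf of 7.80 and took 10.5% of the root counts. A tissue within 4-fold of roots is not thereby well above leaf, so the class does not set leaf apart in every gene. Nodules alone came next, with 1127 genes (22.9%), a median ratio of 42.4 and 8.94% of the root counts. In 645 genes (13.1%) none of the 4 came within 4-fold, and these had the largest median ratio, 65.1. Another 376 genes were shared with stem, flower and seedpod but not with nodules, a class that held 628 genes with library totals. The remaining 12 combinations held between 28 and 180 genes each. The stricter pattern of a level 10 times the highest of the other 5 tissues was met by 268 genes of the root set (5.44%), and in 248 (5.03%) all 5 tissues other than leaf had 10 or more TMM CPM and at least 10 times the leaf level.

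In the leaf set the order was another. None of the 4 tissues came within 4-fold of leaf in 1680 genes (40.5%, 39.0 to 42.1), which carried 30.1% of all leaf counts at a median excess of leaf over roots of 15.0-fold. Stem, flower and seedpod without nodules shared the level of 646 genes (15.6%), so that both underground tissues were low. Nodules alone shared that of 631 genes (15.2%), which carried 8.32% of the leaf counts. This last class depended on the scaling and held 338 of 2909 genes with library totals. All 4 other tissues came within 4-fold of leaf, or exceeded it, in 214 genes (5.16%), or in 134 with library totals. Their median excess of leaf over roots was 5.07-fold, so membership does not place the other tissues well above roots. A gene on chromosome 4.1 (30535254 to 30536880), for example, had 319 TMM CPM in leaf, 79.5 in roots and 88.4 to 97.5 in the others. A level 10 times the highest of the other 5 tissues was met by 503 genes (12.1%). By the mirrored rule 5 genes (0.121%) were low in roots alone.

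**Figure D3:**
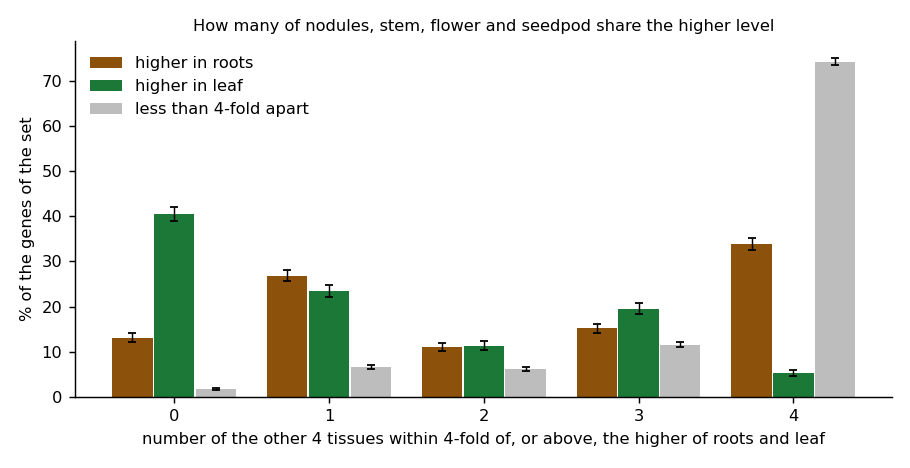
Share of genes (vertical axis, in % of each set, with 95% exact binomial intervals as error bars) by the number of tissues among nodules, stem, flower and seedpod that were within 4-fold of, or above, the higher of roots and leaf (horizontal axis). Genes higher in roots (brown) have their tallest bar at 4 tissues (33.8%), genes higher in leaf (green) at none (40.5%), and genes less than 4-fold apart (grey) at 4 (74.2%).

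The balance of the sides changed with the level of the gene. Among measured genes at 10 to 20 TMM CPM in the higher of roots and leaf, 25.4% were higher in roots and 14.7% in leaf. At 50 to 100 TMM CPM the shares were 21.7% and 22.8%, and at 100 to 1000 they were 20.9% and 34.5%. Of the 132 genes at 1000 or more, 23 (17.4%, 11.4 to 24.99) were higher in roots and 85 (64.4%, 55.6 to 72.5) in leaf. The rise on the leaf side was also found with library totals, where the leaf share was 10.4% in the lowest class and 51.6% in the highest. On the root side the shares with library totals were 30.9% in the lowest class, 29.3% at 100 to 1000 TMM CPM and 25.8% in the highest.

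Genes with few exons were called more often on both sides. Of the 3101 measured single-exon genes 31.2% were higher in roots (29.6 to 32.9), against 16.8% (15.8 to 17.9) of the 4748 genes with 10 or more exons and 23.5% of all measured genes. For leaf the share was 21.0% of single-exon genes (19.5 to 22.4, an interval that holds the 19.8% of all), 26.1% of genes with 2 exons and 16.4% of those with 10 or more. In each class of level below 1000 TMM CPM, single-exon genes had a larger leaf share than genes with 10 or more exons. At 1000 or more the leaf shares were 60.0% of 25 single-exon genes and 78.3% of 23 genes with 10 or more exons. The excess of single-exon genes on the root side was present within classes of level: at 10 to 20 TMM CPM 31.9% of single-exon genes and 17.9% of genes with 10 or more exons were higher in roots, and at 100 to 1000 the shares were 27.4% and 13.8%. Seen from the sets, single-exon genes made up 19.6% of the root set (18.5 to 20.8) and 15.7% of the leaf set (14.6 to 16.8), against 12.5% of the genes less than 4-fold apart. In the root set that share was 16.8% at 4- to 10-fold and 24.7% at 100-fold or more, and in the leaf set 13.5% and 19.1%. Single-exon genes were also more frequent among root genes shared with nodules alone (23.4%) or with no other tissue (24.96%) than among those shared with all 4 (14.6%). Among genes less than 4-fold apart the shares were 24.96% with nodules alone and 11.2% with all 4, so this contrast was not particular to the root set. In the leaf set they were 18.7% with nodules alone, 15.4% with no other tissue and 10.7% with all 4.

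Coding lengths differed little. The median was 1152 nucleotides in the root set and 1170.0 in the leaf set, against 1296 in the genes less than 4-fold apart. Genes shorter than 450 nucleotides made up 8.604% of the root set and 8.33% of the leaf set, against 8.59%. What differed was the intron content, since the median genomic span was 2546.5 nucleotides in the root set and 2940.0 in the leaf set, against 3734 in the others. No gene of the annotation overlaps another in its span, so no member shared exons with an annotated gene on the opposite strand. The sources used here do not give the strand setting of the counting.

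**Figure D4:**
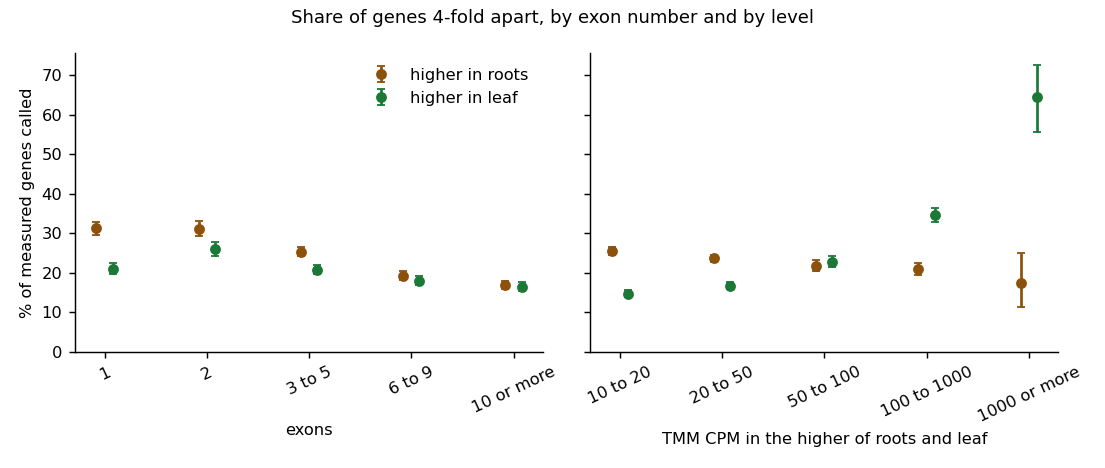
Share of measured genes that were 4-fold or more higher in roots (brown) or in leaf (green), in % on the vertical axis with 95% exact binomial intervals as bars, by exon number (left) and by TMM CPM in the higher of roots and leaf (right). The root share is 31.2% for 1 exon and 16.8% for 10 or more exons, and the leaf share reaches 64.4% at 1000 TMM CPM or more.

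Both sets were spread over the whole genome. Of the measured genes of each chromosome number, between 22.0% (chromosome 2) and 24.8% (chromosome 7) were higher in roots and between 18.8% (chromosome 7) and 21.3% (chromosome 3) were higher in leaf. By haplotype the root share was 23.2% to 24.4% and the leaf share 19.5% to 20.0%. The root share of single chromosome sequences ranged from 20.8% (17.8 to 24.1) on chromosome 2.4 to 28.1% (22.4 to 34.3) on chromosome 6.4, where 66 of 235 genes were called. Both intervals hold the 23.5% of all measured genes.

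Neighbouring genes were on the same side more often than the background. Among 1218 pairs of adjacent measured genes whose first member was higher in roots, the second was also higher in roots in 465 (38.2%, 35.4 to 41.0), against 23.5% of all measured genes, and it was higher in leaf in 14.9%, against 19.8%. For leaf the next gene was on the same side in 318 of 1028 pairs (30.9%, 28.1 to 33.9) and on the root side in 16.0%. In the full gene order 852 genes of the root set (17.3%) and 606 of the leaf set (14.6%) stood in uninterrupted runs of 2 or more. The members of a run had the same number of exons in 42.4% of the root runs and in 19.4% of the leaf runs. No value over all measured genes stands beside these shares or the shares of genes in runs. The root set also held more single-exon genes, 19.6% against 15.7%. The longest runs had 4 genes, with 12 such runs on the root side and 3 on the leaf side.

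Some runs on the root side, picked out after their values were seen, repeated 1 structure. On chromosome 2.1 (57694634 to 57715434), 4 consecutive genes of 2 exons and 474 or 477 nucleotides, all on the minus strand, had 402, 11.1, 411 and 62.9 TMM CPM in roots and 0.975, 0, 21.3 and 3.76 in leaf. Nodules had 91.9, 0.489, 151 and 15.6. On chromosome 4.1 (35517126 to 35556839), 4 single-exon genes of 1578 to 1812 nucleotides had 123, 65.1, 19.6 and 74.8 in roots and 8.22, 0.139, 4.18 and 1.81 in leaf. A comparable run of 4 single-exon genes of 1596 to 1869 nucleotides lay on chromosome 4.4 (40932281 to 40988879), with 11.03 to 36.2 in roots and at most 1.11 in leaf. On the leaf side a run on chromosome 8.2 (72156967 to 72190768) included a gene of 4 exons with 4.24 in roots and 935 in leaf, and with 906 in stem, 584 in flower and 1400.02 in seedpod. The genes of a run lie side by side and are not independent observations. Their sequences were not compared, and reads may be split among them where the sequences are alike.

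Where several same-structure copies reached the minimum level, they mostly fell on the same side. Genes on the same chromosome number with the same chain of exon lengths (3 exons or more), present on 2 or more haplotypes, were taken as same-structure copies, whose sequences were not compared. Such sets held 41.6% of the root set and 39.6% of the leaf set, against 44.4% of all measured genes. Of the 1292 sets with any copy on the root side, 644 had 2 or more measured copies, on the same or on different haplotypes. Of the 1012 on the leaf side, 604 did. In the rest only the called copy reached the minimum level. Of 2940 sets with exactly 1 copy on each of the 4 haplotypes, all 4 copies were measured in 146. Of the 45 of these with any copy on the root side, 30 had all 4 there (66.7%, 51.0 to 80.0), and of the 42 with any copy on the leaf side, 27 had all 4 there (64.3%, 48.0 to 78.4). None of the 146 had copies on both sides. The ratio of roots to leaf differed between the most extreme copies of a set by a median of 1.79-fold (middle range 1.48 to 2.74), and in 89 sets by less than 2-fold, whereas the level itself differed by a median of 4.69-fold. The largest range of the ratio was 400.3-fold, in a set of 4-exon genes of 2703 nucleotides on chromosome 3 that was looked up for this range. The copies on haplotypes 3.2, 3.3 and 3.4 had 111, 62.7 and 21.96 TMM CPM in roots and 0.139, 0.139 and 0 in leaf, whereas the copy on haplotype 3.1 (60021548 to 60025258) had 374 in roots and 187 in leaf. Copies share sequence, and how the authors' counting split reads between them is not known.

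**Figure D5:**
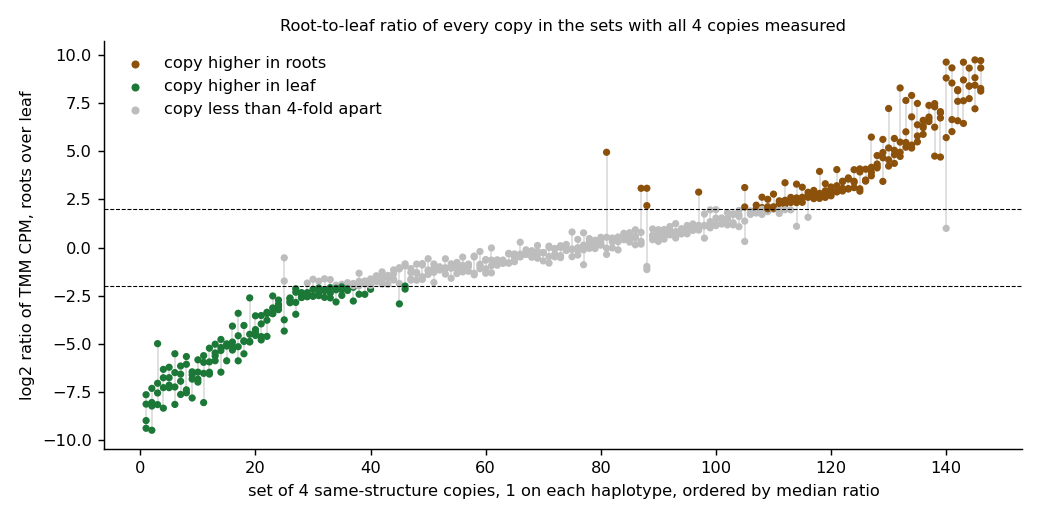
Log2 ratio of TMM CPM in roots over leaf (vertical axis) of every copy in the 146 sets of 4 same-structure copies, 1 on each haplotype and all at 10 TMM CPM or more in roots or leaf, ordered along the horizontal axis by the median of the set; grey lines join the copies of a set and dashed lines mark 4-fold. Copies of a set lie mostly close together, 30 sets lie wholly above the upper line, 27 wholly below the lower one, and single copies stand apart in a few sets.

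Sets that held the abundant genes showed how unevenly the copies could be counted. The gene of 9 exons on chromosome 8.4 with 3823 TMM CPM in roots has 4 same-structure copies, of which the one on chromosome 8.3 (72009271 to 72013944) had 7.96 in roots and 0 in leaf, and the others had at most 2 counts in roots. The 4-exon genes of 1068 nucleotides on chromosome 2 form a set of 13 copies on 4 haplotypes. In 8 of them roots were 4-fold or more higher, among them copies on chromosomes 2.4 (60123469 to 60125520) with 1048 in roots and 2.23 in leaf, and 2.2 (58199722 to 58201685) with 508 in roots and 1.25 in leaf. The copies with the lowest coordinates on 3 of the haplotypes differed: on chromosome 2.1 (61258850 to 61262289) roots had 107 and leaf 74.2, on chromosome 2.3 (59836354 to 59839016) 47.7 and 25.3, and on chromosome 2.4 (59714213 to 59717296) 35.0 and 69.2. Summed over the 13 copies, roots had 3797 and leaf 177, a ratio of 21.4 (20.3 to 22.7). In the set of 3-exon genes of 822 nucleotides, 3 copies on chromosome 2.1 had 1023, 1729 and 76.0 in roots and 8.77, 16.7 and 2.65 in leaf. The copy on chromosome 2.3 (16293859 to 16296115) had no count in roots or leaf. Of the 4 copies of the 13-exon gene on chromosome 2, 3 met the rule, with ratios of 4.35, 4.03 and 5.69, and the copy on chromosome 2.2 (42944314 to 42948890) missed it at 3.64 (3.12 to 4.28).

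On the leaf side the 4 sets with the highest summed levels had every copy on the leaf side. The 4-exon genes of 348 nucleotides on chromosome 8 summed to 39.0 TMM CPM in roots and 10504 in leaf over 3 copies, a leaf excess of 269-fold (243 to 299), although the copy on chromosome 8.2 (19060863 to 19061684) had only 74 leaf counts. The 3-exon genes of 375 nucleotides on chromosome 7 summed to 241 in roots and 7957 in leaf over 4 copies, with leaf levels of 111, 101, 2581 and 5164 and a summed leaf level 33.0-fold above the summed root level (31.6 to 34.4). The 10-exon genes of chromosome 3 summed to 13.0 in roots and 7952 in leaf, 609-fold higher in leaf (511 to 733). The 4-exon genes of 756 nucleotides on chromosome 2 summed to 164 in roots and 7533 in leaf, 45.9-fold higher in leaf (43.6 to 48.3), and nodules reached 1922 over the same copies.

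Opposite calls within a same-structure set occurred in 5 sets, of which 4 held between 7 and 29 copies, and the genes given here were chosen after their values were seen. The remaining set, of 4 copies, was on chromosome 5, where a gene on haplotype 5.1 (77206542 to 77210624, 13 exons, 2283 nucleotides) had 40.3 TMM CPM in roots and 8.22 in leaf, and its counterpart on haplotype 5.2 (81215531 to 81219536) had 3.61 in roots and 85.9 in leaf. The ratio of roots to leaf was 4.91 (3.72 to 6.57) in the first, and in the second leaf was 23.8-fold higher (16.9 to 34.7). In a set of 8 genes of 1089 nucleotides on chromosome 5, copies on chromosome 5.2 that lie close to each other went opposite ways: one (21640162 to 21641775) had 134 in roots and 0.975 in leaf, and the other (21623409 to 21625632) had 2.12 in roots and 26.7 in leaf, with 535 in flower.

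PHO2, named in the series title and known in Arabidopsis as a ubiquitin-conjugating enzyme that holds back the loading of phosphate into the shoot, met the rule on neither side. MS.genePho2-1d and its 3 counterparts on chromosome 2 had ratios of roots to leaf between 0.769 and 2.29, with 33.9 to 115 TMM CPM in roots and 44.2 to 92.9 in leaf. Of the 4 genes of chromosome 4 that share the lengths of exons 4 to 7 with PHO2, a resemblance of structure only, picked out after their values had been seen, 2 were in the root set. The one on chromosome 4.2 (22209780 to 22214517) had 59.5 in roots and 0.696 in leaf, a ratio of 85.5 (36.4 to 264), and the one on chromosome 4.4 (23914950 to 23919185) had 19.2 in roots and 0.279 in leaf. The other 2 had 3.61 and 4.88 in roots, under the minimum level, and no count in leaf.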

How the data were processed

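Per the labels' protocols, column-extracted RNA of 3 replicates per tissue was pooled and sequenced with paired-end reads. The authors deposited raw counts per gene, with exon positions and, as another quantity, the summed exon length of each gene, per the file headers. These lengths are called coding lengths because 95.6% can be divided by 3. Per the submitters' processing notes, edgeR, featureCounts, FastQC and Trimmomatic were used, with no version stated. No aligner, genome build, strand setting or handling of reads with several matches is given in the sources used here.

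Library totals were scaled with edgeR 4.0.16 (TMM over all genes and 6 libraries) in R 4.3.3. The rule was 10 TMM CPM and 4-fold, with 3 counts in place of 0. Levels have exact Poisson intervals, ratios exact conditional binomial intervals and shares exact Clopper-Pearson intervals, at 95%. The rule and the intervals were run on simulated Poisson counts with known folds above the 4-fold limit. Those counts held no variation beyond counting, so the run checked the arithmetic and not the error of the data. Tables and figures were made in Python 3.11.15 (matplotlib 3.10.9, scipy 1.17.1, pandas 2.3.3, numpy 2.4.6).

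Identifiers were limited to the 2 most abundant genes of each side. By position were given the next 8, the 5 with the highest lower end of the fold at 100 TMM CPM or more, the 4 same-structure sets with the highest summed level, borderline genes and the PHO2 copies; runs, sets with opposite calls and the chromosome 4 genes were picked out after their values were seen. Members, lists and rules were chosen with earlier results of these data known. Alternatives were library totals, DESeq2 1.42.0 size factors, TMM on roots and leaf alone, a filter of 10 counts, other minimum levels, the interval rule and summed copies. The patterns by level, exon number and tissue were recomputed under other scalings as alternatives chosen after seeing the data.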

Additional observations from a re-analysis of the deposited data

How the results depend on the processing

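Another scaling multiplies every ratio by the same factor, here far smaller than 4-fold, so no called gene could reverse its direction. Library totals kept all 4928 calls on the root side and 2909 of the 4144 on the leaf side. DESeq2 size factors kept 4758 and 4144, and TMM factors from roots and leaf alone kept 4674 and 4052. The number of genes higher in roots lay between 4097 and 7253 under all alternatives but 1. The exception was a minimum of 20 TMM CPM, which left 3049 genes higher in roots and 3058 in leaf. The number higher in leaf lay between 2909 and 5221. With library totals the median excess of the leaf set was 11.05-fold, against 9.84 with TMM. Nodules were the highest of the other 4 tissues in 41.7% of the root set and 29.8% of the leaf set with library totals, against 48.7% and 38.9% with TMM, where the share over all measured genes was 42.5%. Every ratio of roots to leaf was multiplied by 1.36 with library totals, by 0.935 with DESeq2 size factors and by 0.980 with TMM from roots and leaf alone. Same-structure sets with at least 2 measured copies and any call had all measured copies on 1 side in 72.1%, and in 71.0% to 73.8% under the other scalings. Summing same-structure copies gave 4251 units higher in roots and 3429 in leaf.

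No paired analysis was possible because each tissue has 1 library, and for the same reason no replicate was left out. No shares of the other tissues exist with TMM from roots and leaf alone. Depth limits the low side: the limit of 3 counts used for a count of 0 equals 0.418 TMM CPM in leaf and 0.318 in roots.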
